A study of Homo sapiens with 12 samples.

Results

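ETS genes encode transcription factors that share a winged helix-turn-helix DNA-binding domain, the ETS domain, and that bind DNA sites built around a GGAA core. Their subgroups differ outside that domain. ETS1 and ETS2 are activators phosphorylated by ERK, the MAP kinase at the end of the RAS pathway, and ETS1 is known for its link to invasion and matrix remodelling. ETV1, ETV4 and ETV5 form the PEA3 group, whose genes are repressed by CIC and released from it by ERK. ELK1, ELK3 and ELK4 are ternary complex factors that act with SRF, ELF3 and EHF mark epithelial cells, and ERF is a repressor that ERK inactivates.

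The 10 genes described here are ETS1, ETS2, ELK3, ELF1, ELF3, EHF, ETV1, ETV4, ETV5 and ERF, out of 28 human ETS genes and 20979 entries in the expression table. They were picked by symbol from a list drawn up with earlier results of these data in view. The opposite response of ETS1 to the PTPN14 siRNAs was among those results, and which values led to the other 9 is not recorded. Changes of these 10 genes are therefore given as descriptions, with standard errors and without p-values. Nothing is read from how many of them were called or moved in the same direction. The other 18 genes of the family were ERG, FLI1, FEV, GABPA, ELF2, ELF4, ELF5, ELK1, ELK4, ETV2, ETV3, ETV3L, ETV6, ETV7, SPI1, SPIB, SPIC and SPDEF.

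PolyA RNA was sequenced from 3 established human kidney lines. A704 and CAKI-1 are labelled as cancer and HK2, an immortalised line, as normal kidney, and all are labelled epithelial. Each line was transfected at 25 nM with a non-targeting siRNA, a LATS siRNA or 1 of 2 PTPN14 siRNAs, using lipid transfection, and harvested after 48 h, which gives 12 libraries, 1 per line and siRNA. LATS kinases and the phosphatase PTPN14 are negative regulators of the coactivator YAP1 in Hippo signalling, the subject of the study's title. The labels do not say which LATS gene was targeted. The numbers 1 and 2 of the PTPN14 siRNAs are swapped between sample titles and descriptions, and the names PTPN14-1 and PTPN14-2 follow the titles. Nothing in the labels says that libraries came from separate cultures, so the errors measure the spread of the changes over these 3 lines, which may be partly technical.

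Effective depth, estimated from the lowest values, ran from 16.9 to 23.2 M reads. PTPN14 stood at 21.4 to 37.5% of the FPKM of the same line's control in the 6 PTPN14 libraries, and LATS1 at 22.5 to 30.7% in the 3 LATS libraries, where LATS2 stood at 98.2 to 122%. RNA integrity numbers were 10 in all libraries but the A704 control, which had 9.6. PAX8, a kidney lineage factor, lay between 19.4 and 85.3 FPKM in every library. The epithelial cadherin CDH1 lay at 16.0 to 21.4 in A704 but at 0.17 or below in HK2 and CAKI-1, and LRP2, a proximal tubule receptor, was listed at 0 in all HK2 and CAKI-1 libraries. The summed FPKM of 5 endothelial markers was at most 0.47 in any library, with CDH5 listed at 0 in A704 and CAKI-1. Of 5 blood markers CD68 lay at 134 to 198 FPKM in A704, 31.46 to 43.35 in HK2 and 17.73 to 25.23 in CAKI-1. ITGAM lay at 1.42 to 2.02 in A704, and CD3E was listed at 0 throughout. The 5 fibroblast markers summed to 0.72 to 1.51 in A704 and 1.12 to 2.50 in CAKI-1. In HK2 they summed to 6.64 to 9.60, with DCN at 5.67 to 8.20. Their part in the results below was not tested. These are bulk values, so fewer cells of a type and less RNA per cell cannot be told apart.

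The other 9 genes lie on 9 chromosomes (GRCh38, GENCODE 29). ETS2 spans 38805307 to 38824955 on chromosome 21, ELK3 96194382 to 96269835 on chromosome 12, ELF3 202007945 to 202017188 on chromosome 1 and EHF 34621093 to 34661057 on chromosome 11, all on the plus strand. On the minus strand, ELF1 spans 40932028 to 41061440 on chromosome 13, ETV1 13891228 to 13991425 on chromosome 7, ETV4 43527844 to 43579620 on chromosome 17, ETV5 186046308 to 186110318 on chromosome 3 and ERF 42247572 to 42255157 on chromosome 19. Exons of ETS1, ETS2, EHF and ETV1 overlap no other annotated gene. ELF1, ELF3, ELK3 and ETV4 share exon bases with a gene of the opposite strand (WBP4, ELF3-AS1, AC008149.1 and DHX8), and ELF3, ERF and ETV5 with one of the same strand (AL691482.3, AC006486.1 and DGKG), so their values may hold reads of those genes.

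ETS1 stood higher with PTPN14-1 and lower with PTPN14-2 in all 3 lines. The gene lies on chromosome 11 at 128458761 to 128587558, minus strand (GRCh38, GENCODE 29). In A704 its FPKM, a level per length and depth, was 30.3 with control siRNA, 32.7 with LATS siRNA, 46.2 with PTPN14-1 and 16.1 with PTPN14-2. In HK2 the same libraries gave 41.9, 54.2, 80.4 and 19.1, and in CAKI-1 27.4, 21.9, 38.5 and 10.3. In each line PTPN14-1 was the highest library and PTPN14-2 the lowest. As a share of its own control, ETS1 with PTPN14-1 was at 153% (A704), 192% (HK2) and 140% (CAKI-1). With PTPN14-2 it was at 53.2, 45.7 and 37.6%.

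The changes of ETS1 were -1.10 (SE 0.12, n = 3 against 3) with PTPN14-2 and 0.67 (SE 0.12) with PTPN14-1, as differences in log2(FPKM + 1) from a limma fit with line as a block. The LATS libraries lay on both sides of their controls, with a change of 0.05 (SE 0.12). Between the PTPN14 siRNAs ETS1 differed by 1.76 (SE 0.12), from 1.47 within A704 to 2.01 within HK2. That was the largest difference in size among the 12276 genes tested, and it is among the values the gene was chosen on. Leaving out any 1 library left this difference between 1.67 and 1.88. With PTPN14-1 the change lay between 0.57 and 0.80, and ETS1 was not called without HK2 PTPN14-1 or without the HK2 control.

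The summed level of the other ETS genes differed far less between these libraries. The FPKM of all 28 genes other than ETS1 summed in HK2 to 207 in the control library, 209 with PTPN14-1 and 206 with PTPN14-2. In A704 the sums were 125, 127 and 117, and in CAKI-1 202, 196 and 206. The share of ETS1 in the family's summed FPKM was 16.8% in the HK2 control, 27.8% with PTPN14-1 and 8.48% with PTPN14-2. In CAKI-1 it went from 11.95 to 16.4 and 4.76%, and in A704 from 19.4 to 26.7 and 12.1%.

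ETS2, the closest relative of ETS1, moved with 1 of the 2 siRNAs. Its FPKM was 4.36 with control siRNA, 3.81 with LATS siRNA, 4.23 with PTPN14-1 and 2.84 with PTPN14-2 in A704. In HK2 it was 7.21, 5.71, 6.53 and 5.69, and in CAKI-1 6.89, 6.02, 6.70 and 4.43. The control was the highest library and PTPN14-2 the lowest in each line, though in HK2 the PTPN14-2 and LATS libraries differed by 0.02 FPKM. The change with PTPN14-2 was -0.44 (SE 0.09), against -0.07 (SE 0.09) with PTPN14-1 and -0.21 (SE 0.09) with LATS siRNA. With 1 library left out the change with PTPN14-2 lay between -0.53 and -0.38, and ETS2 was not called in 5 of these 12 fits, those that lacked PTPN14-2 of A704 or CAKI-1, or any 1 control. The bars of ETS1, ETS2 and ELK1 by library show these levels side by side.

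**Figure D1:**
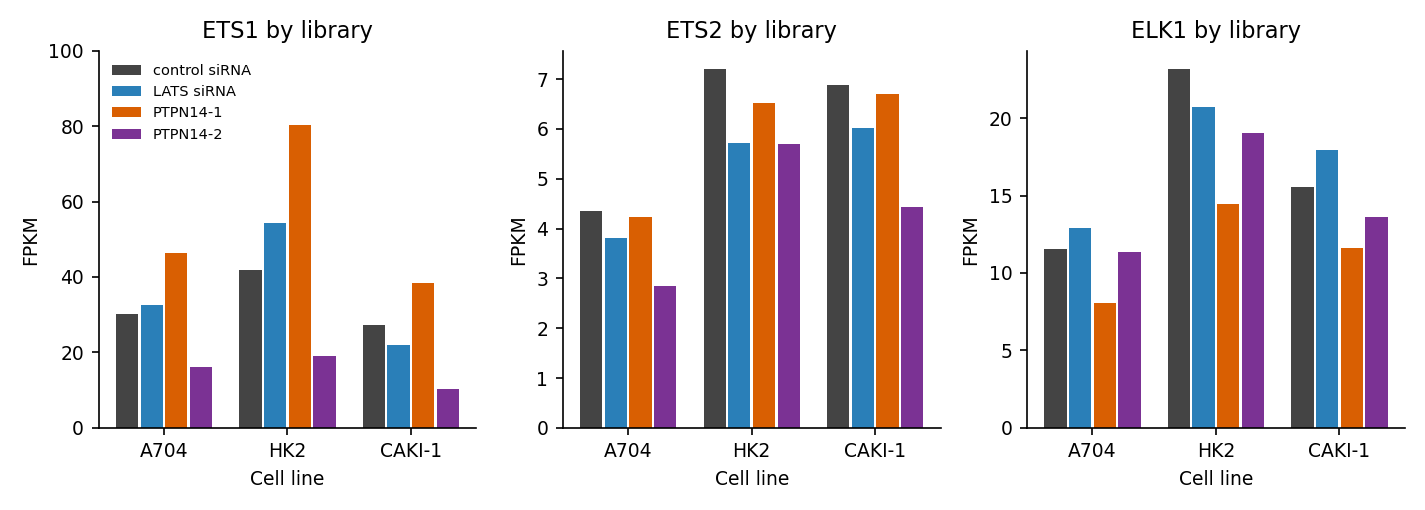
FPKM of ETS1, ETS2 and ELK1 (y axes, linear, from 0) in each of the 12 libraries, by cell line (x axis) and siRNA (colour); each bar is 1 library. ETS1 is highest with PTPN14-1 and lowest with PTPN14-2 in every line, ETS2 is lowest with PTPN14-2, and ELK1 is lowest with PTPN14-1.

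The ETS2 promoter is shown because this gene and ETS1 were both lower with PTPN14-2. The window is chr21:38804933-38805232, plus strand, from 250 bases before to 50 after the RefSeq gene start (RefSeq sequence, GRCh38.p14), with capitals marking each GGAA, the ETS core, on either strand.
ETS2: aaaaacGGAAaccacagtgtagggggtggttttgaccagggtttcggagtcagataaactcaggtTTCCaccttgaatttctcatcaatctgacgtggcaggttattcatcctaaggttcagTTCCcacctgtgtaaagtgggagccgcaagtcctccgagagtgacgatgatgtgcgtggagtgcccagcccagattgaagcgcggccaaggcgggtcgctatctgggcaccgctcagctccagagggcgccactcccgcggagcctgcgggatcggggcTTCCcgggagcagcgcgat
It holds 4 such cores, a count that has little weight since 95.5% of 27305 promoters of 300 bases hold at least 1. The longer letters CCGGAA, which contain GGAA and occur on either strand in 17.6% of promoters, were not in this window, nor was GGAATG, the core bound by the TEAD partners of YAP1 (14% of promoters). RefSeq promoters matched 7 of the 10 genes by symbol; ETS1, ETV4 and ETV5 had no entry.

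Of the 10 genes, 9 passed the filter on low values (FPKM above 1 in at least 3 libraries). A call is an adjusted p under 0.05 by limma with Benjamini-Hochberg adjustment over all 12276 genes. With PTPN14-1, 1 of the 9 was called, ETS1, where 5.87% of all genes were (2.39% higher and 3.47% lower). PTPN14-2 gave 2, ETS1 and ETS2, both lower, against 1.35% of all genes in either direction, 0.448% higher and 0.904% lower. Between the PTPN14 siRNAs the same 2 genes were called, both higher with PTPN14-1, against 11.7% of all genes in either direction, 5.52% higher and 6.18% lower. The LATS siRNA gave 0 calls by limma, with 2 of 9 at an unadjusted p under 0.05, where 0.122% of all genes were called (0.0244% higher, 0.0978% lower). The median change over the 9 genes was 0.01 with PTPN14-1, -0.18 with PTPN14-2 and -0.06 with LATS siRNA, against medians of 0.00 over all genes in each. The comparisons with control share the same 3 control libraries, so their values are set side by side and not correlated.

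Counted by direction alone, 5 of the 9 genes were lower than control in all 3 lines with PTPN14-2, where 21.6% of all genes were. They were ETS1, ETS2, ELK3, ETV5 and ERF. The genes were chosen with earlier results in view, so this count is only a description. ELK3, a ternary complex factor that can repress, was at 9.51 FPKM with control siRNA and 7.73 with PTPN14-2 in A704, 31.5 and 29.1 in HK2, and 17.99 and 16.8 in CAKI-1, a change of -0.16 (SE 0.10). ERF went from 13.7 to 11.6 in A704, from 15.8 to 13.6 in HK2 and from 8.93 to 7.70 in CAKI-1, a change of -0.20 (SE 0.11). ETV5 had -0.18 (SE 0.08). None of these 3 was called. ERF stood at 12.8 FPKM with LATS siRNA in CAKI-1, 143% of control, but at 106% in A704 and 85.9% in HK2. With PTPN14-1 only ETS2 was lower in all 3 lines (21% of all genes) and 2 genes, ETS1 and ELF3, were higher (20.6%). With LATS siRNA ETS2 was again lower in all 3 lines (19% of all genes) and ELF3 higher (18.2%).

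ELF3, an epithelial ETS factor, was the 1 gene of the 9 above its control in all 9 comparisons of a library with the control of its line. In HK2 its FPKM was 6.95 with control siRNA, 9.37 with LATS siRNA, 7.63 with PTPN14-1 and 11.5 with PTPN14-2. The CAKI-1 values were 36.0, 54.2, 43.1 and 48.4, and the A704 values 13.7, 15.4, 15.4 and 16.0. The 3 comparisons of a line share its 1 control library. ETS2 was below its control in all 9 comparisons, and the share of all genes with either pattern was not counted. The changes of ELF3 were 0.18 (SE 0.10) with PTPN14-1, 0.43 (SE 0.10) with PTPN14-2 and 0.37 (SE 0.10) with LATS siRNA, and none was called. The PTPN14-2 change was called when the A704 PTPN14-1 or the CAKI-1 LATS library was left out. Of all genes, 20.9% were higher in 3 of 3 lines with PTPN14-2 and 18.2% with LATS siRNA.

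ELF1, a broadly expressed activator, was at 17.7 FPKM with PTPN14-1 and 13.5 with PTPN14-2 in A704, 14.6 and 11.7 in HK2, and 19.02 and 17.8 in CAKI-1. Its controls stood at 16.4, 11.2 and 19.9. It was higher with PTPN14-1 than with PTPN14-2 in every line, with a difference of 0.25 (SE 0.11) that was not called. ERF and ETV5 showed the same order in every line, at 0.22 (SE 0.11) and 0.19 (SE 0.08), also not called. Together with ETS1 and ETS2 these made 5 of 9 genes higher with PTPN14-1 in all 3 lines, where 24.9% of all genes were. ETS1 was chosen on this difference, so the count is only a description. ELF3 and ETV1 were lower in all 3 lines (23.2% of all genes). In the plot of changes by line, the 3 ETS1 points lie on opposite sides of 0 for the 2 PTPN14 siRNAs.

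**Figure D2:**
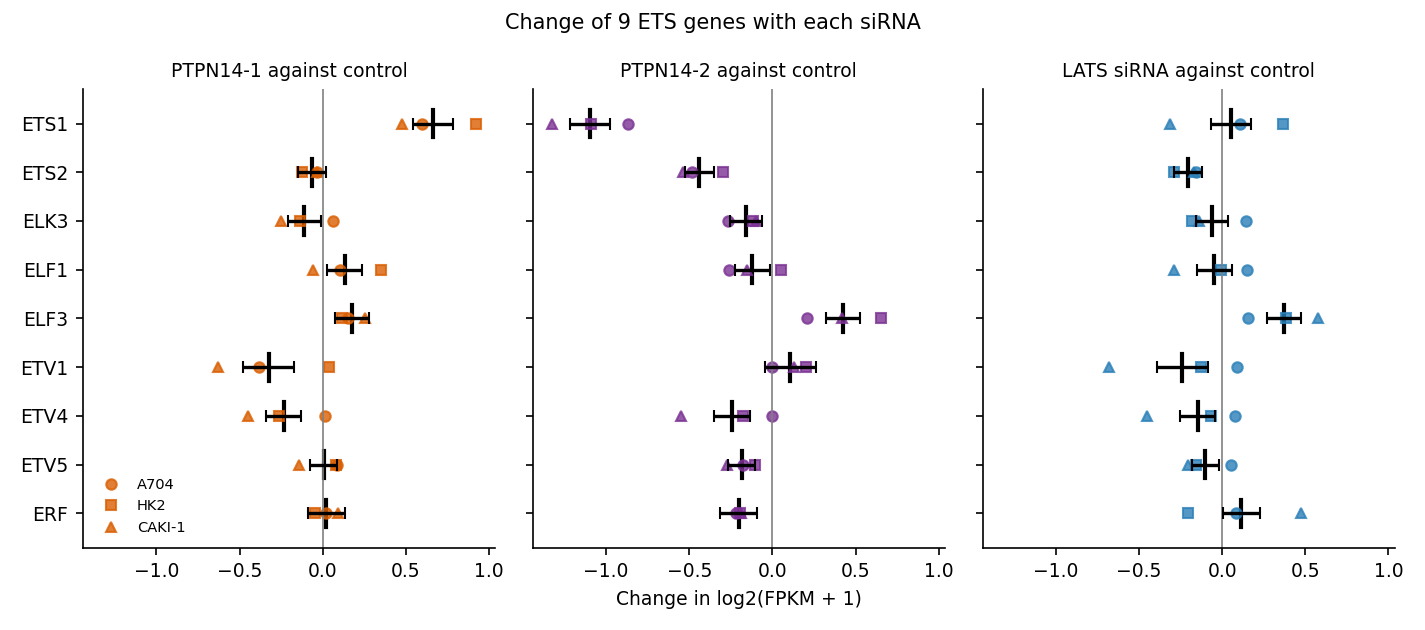
Change in log2(FPKM + 1) against the control of the same line (x axis) for the 9 ETS genes that passed the filter (y axis), with 1 panel per siRNA. Circles, squares and triangles are A704, HK2 and CAKI-1; the vertical tick and bar are the limma estimate and its SE. ETS1 stands at 0.67 with PTPN14-1 and -1.10 with PTPN14-2.

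ETV1 and EHF shared a pattern in CAKI-1. ETV1, a PEA3 activator, was at 4.84 FPKM with control siRNA and 5.38 with PTPN14-2 in that line, against 2.65 with LATS siRNA and 2.77 with PTPN14-1. EHF, a relative of ELF3, was at 1.73 and 1.72 with control and PTPN14-2, against 0.54 and 0.49 with LATS siRNA and PTPN14-1. In share of control, ETV1 was at 54.8 and 57.2% and EHF at 31.2 and 28.3% in the LATS and PTPN14-1 libraries. The EHF values correspond to an estimated 42 to 174 reads per library. Each value is from 1 library, so this pattern has no replicate check in CAKI-1.

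Other lines did not show it. ETV1 was at 6.88 with control siRNA, 6.22 with LATS siRNA, 7.08 with PTPN14-1 and 8.06 with PTPN14-2 when measured in HK2. The A704 values in that order were 1.89, 2.07, 1.22 and 1.88, so PTPN14-1 was low there but LATS siRNA was not. EHF was at 0.01 FPKM or listed at 0 in HK2 and at most 0.06 in A704, where at most an estimated 5 reads lay behind a value. EHF is the gene of the 10 that did not pass the filter, with FPKM above 1 in 2 libraries. Among 12144 tested genes above 0 in the CAKI-1 control, 24 (0.198%), ETV1 among them, were at 60% of control or less with both LATS siRNA and PTPN14-1 and at 90% or more with PTPN14-2. These limits were chosen after the values were seen. Over the 3 lines ETV1 had estimates of -0.33 (SE 0.15) with PTPN14-1, 0.11 (SE 0.15) with PTPN14-2 and -0.24 (SE 0.15) with LATS siRNA, none called. The bars of EHF and ETV1 show both patterns.

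**Figure D3:**
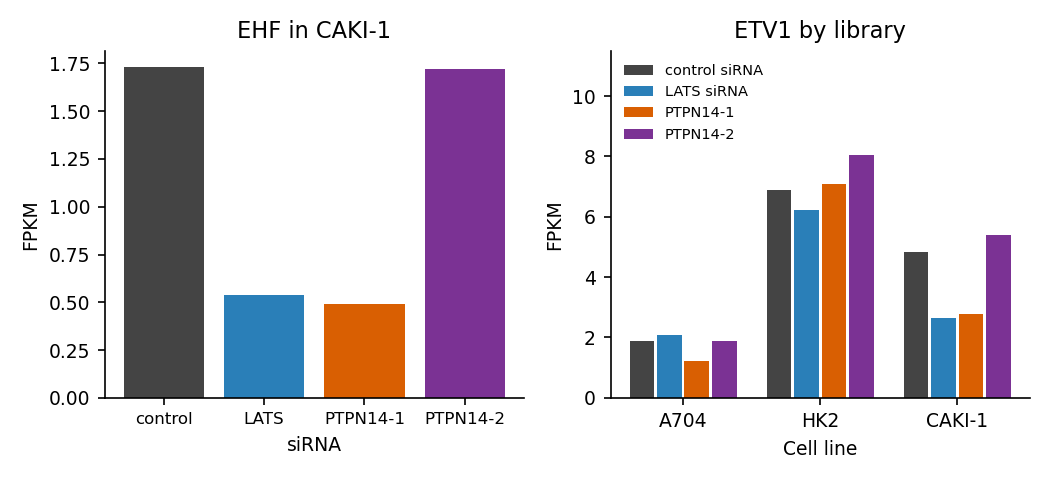
FPKM (y axes, linear, from 0) of EHF in the 4 CAKI-1 libraries and of ETV1 in all 12 libraries, by line and siRNA; each bar is 1 library. In CAKI-1 both genes are low with LATS siRNA and PTPN14-1 and at about the control level with PTPN14-2.

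Promoters of ETV1 and EHF are given because the genes had the same pattern in CAKI-1. The windows are chr7:13990653-13990952, minus strand, and chr11:34624007-34624306, plus strand (RefSeq, GRCh38.p14), read 5′ to 3′ with each GGAA core in capitals on either strand.
ETV1: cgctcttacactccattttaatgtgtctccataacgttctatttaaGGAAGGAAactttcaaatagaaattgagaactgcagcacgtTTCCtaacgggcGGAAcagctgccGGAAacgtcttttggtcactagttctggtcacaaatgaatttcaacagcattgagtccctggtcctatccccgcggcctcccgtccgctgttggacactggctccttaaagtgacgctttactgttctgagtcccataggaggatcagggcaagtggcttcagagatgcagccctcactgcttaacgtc
EHF: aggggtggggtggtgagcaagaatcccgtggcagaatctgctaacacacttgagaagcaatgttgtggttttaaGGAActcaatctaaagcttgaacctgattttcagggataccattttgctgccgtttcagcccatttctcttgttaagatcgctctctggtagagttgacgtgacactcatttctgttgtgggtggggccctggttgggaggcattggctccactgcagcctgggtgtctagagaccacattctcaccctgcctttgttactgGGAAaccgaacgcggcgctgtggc
The ETV1 window holds 5 cores and the EHF window 2. ETV1 was the only one of the 7 promoters found that contained CCGGAA, and none of the 7 contained the TEAD letters GGAATG. The ELF1 window lies at 40982233 to 40982532, far inside a minus-strand gene whose GENCODE bound is 41061440. Windows of ELF3, EHF and ETV1 also lie inside the GENCODE bounds of their genes, and other starts were not searched. A letter match describes the window and does not show binding.

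ETV4 and ETV5 complete the PEA3 group. In CAKI-1 ETV4 was at 2.21 FPKM with control siRNA, 1.35 with LATS siRNA, 1.35 with PTPN14-1 and 1.19 with PTPN14-2, so all 3 siRNAs lay below the control. In HK2 the values were 20.3, 19.3, 16.7 and 17.8, and A704 lay between 0.13 and 0.19. Changes over the lines ran from -0.24 with PTPN14-2 (SE 0.11) to -0.15 with LATS siRNA (SE 0.11), none called. ETV5 lay between 81.7 and 107% of control in the 9 siRNA libraries.

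Apart from ETS1, the tested genes differed more between lines than between siRNAs. ETV4 lay between 16.7 and 20.3 FPKM in HK2, between 1.19 and 2.21 in CAKI-1 and between 0.13 and 0.19 in A704, with no overlap. ETV1 followed the same order, with a mean of 7.06 ± 0.76 (SD, n = 4 libraries with different siRNAs) in HK2, 3.91 ± 1.40 in CAKI-1 and 1.77 ± 0.37 in A704. ETV5 averaged 16.1 ± 1.27 in HK2 and 16.3 ± 1.42 in CAKI-1, which overlapped, and 4.40 ± 0.42 in A704. Each PEA3 gene was therefore lowest in A704. The log2 differences of A704 from HK2 were -4.09 (SE 0.09) for ETV4, -1.66 (SE 0.07) for ETV5 and -1.55 (SE 0.13) for ETV1; for ETV4 the value was -6.24 with a pseudocount of 0.1.

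ELF3 had another order of lines. It averaged 45.4 ± 7.75 FPKM in CAKI-1, 15.1 ± 0.98 in A704 and 8.86 ± 2.02 in HK2, with no overlap. EHF exceeded 0.06 FPKM in CAKI-1 alone. ELK3 averaged 29.2 ± 1.66 in HK2, 16.5 ± 1.27 in CAKI-1 and 9.45 ± 1.23 in A704, again without overlap. ETS1 was the only 1 of the 9 tested genes whose libraries overlapped in all 3 pairs of lines, with a range of 19.1 to 80.4 in HK2, 16.1 to 46.2 in A704 and 10.3 to 38.5 in CAKI-1.

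The remaining genes differed by less between lines. ETS2 averaged 6.29 ± 0.73 FPKM in HK2 and 6.01 ± 1.12 in CAKI-1, which overlapped, and 3.81 ± 0.69 in A704. ERF averaged 14.6 ± 1.13 in HK2, 13.5 ± 1.26 in A704 and 9.75 ± 2.17 in CAKI-1, where only HK2 and CAKI-1 did not overlap. ELF1 averaged 18.2 ± 1.64 in CAKI-1, 16.4 ± 2.13 in A704 and 12.2 ± 1.64 in HK2, with no overlap between CAKI-1 and HK2. By mean level ETS1 was the first of the 28 genes in HK2 and A704 and the second, after ELF3, in CAKI-1.

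Such separation was common in these lines. For each pair of lines, 6 of the 9 tested genes did not overlap, against 76.1% of all genes for A704 and HK2, 69.8% for CAKI-1 and HK2 and 68.8% for CAKI-1 and A704. Over all 3 pairs 4 of 9 did not overlap (ELF3, ETV1, ELK3 and ETV4), against 37.5%. By limma 8 of 9 were called between A704 and HK2 (84.6% of all genes), with 2 higher in A704 (40.6%) and 6 lower (44%). Between CAKI-1 and HK2 7 were called (81.7%), with 2 higher in CAKI-1 (40.4%) and 5 lower (41.3%). Between CAKI-1 and A704 8 were called (81.1%), with 6 higher in CAKI-1 (41.8%) and 2 lower (39.3%). These shares do not set the ETS genes apart from other genes. Each line was grown in its own medium, so line and medium cannot be told apart, and 3 lines do not represent tumour or normal kidney.

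**Figure D4:**
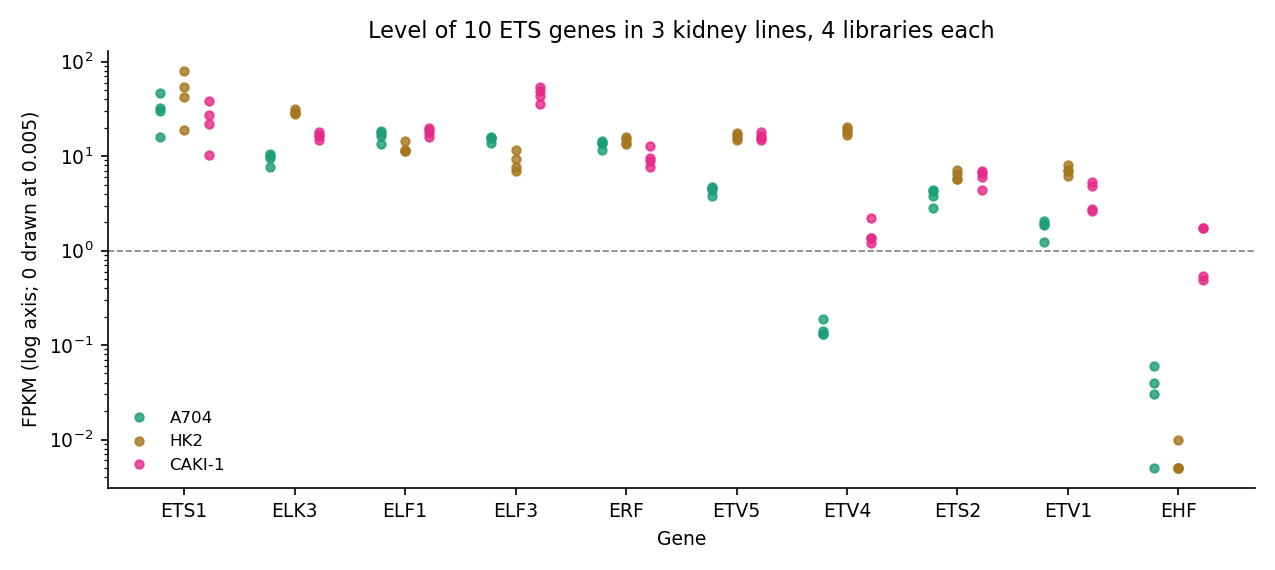
FPKM on a log axis (y) for the 10 ETS genes (x), with 1 point per library and 4 libraries per line in each colour; values listed at 0 are drawn at 0.005, and the dashed line marks FPKM 1. ETV4 spans 0.13 to 20.3 FPKM over the lines, EHF exceeds 0.06 in CAKI-1 alone, and the ETS1 ranges of the lines overlap.

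Among the other 18 ETS genes, 7 passed the filter, and 1 of these, ELK1, was called with PTPN14-1 (5.87% of all genes) and between the PTPN14 siRNAs (11.7%). ELK1, a ternary complex factor, fell with PTPN14-1 by 0.50 on the log2 scale (SE 0.08, lower in 3 of 3 lines, limma adjusted p = 0.00557). Its FPKM went from 11.6 to 8.07 in A704, from 23.2 to 14.5 in HK2 and from 15.6 to 11.6 in CAKI-1. With PTPN14-2 the change was -0.16 (SE 0.08, adjusted p = 0.396). ELK1 was also lower with PTPN14-1 than with PTPN14-2 (-0.34, SE 0.08, adjusted p = 0.0187), but not without either A704 or either HK2 PTPN14 library, with adjusted p up to 0.0901. ELF4, a relative of ELF1, had 0.32 (SE 0.11) with PTPN14-1, and GABPA had -0.24 (SE 0.10) with LATS siRNA; neither passed. ELF2, ELK4, ETV3 and ETV6 had changes between -0.17 and 0.16 in all 4 comparisons of siRNAs.

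The 11 ETS genes below the filter never exceeded 1.13 FPKM. In the fit without the filter, over 17167 genes, the log2 difference of ETV2 between PTPN14-1 and PTPN14-2 was -0.13 (SE 0.02, lower in 3 of 3 lines, limma adjusted p = 0.0162). Its FPKM was 0.09 and 0.23 with these siRNAs in A704, 0.06 and 0.16 in HK2, and 0.06 and 0.12 in CAKI-1. Few reads lie behind values this low, so the p-value carries little weight. Among the 11, FEV, ETV3L and SPIC were listed at 0 in every library. ETS genes of blood and endothelium were at or near 0: FLI1 at 0.01 or less and SPI1 at 0.03 or less. ERG lay between 0.37 and 0.52 in HK2 and was listed at 0 in the other lines. Several ETS genes are close neighbours in the genome but differed in level. FLI1 lies 99.0 kb from ETS1, ELF5 107 kb from EHF, and ERG 144 kb from ETS2, in opposite orientation in each pair. ELF5 was at 0.01 FPKM or less throughout, also in CAKI-1, where EHF reached 1.73.

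The related lists below were drawn up with earlier results of these data known and their genes named by smallest p, so their p-values, adjusted over all 12276 genes, are descriptions and no independent support. Of 12 genes that ERK induces or CIC represses, as CIC does the PEA3 genes, 6 were called higher with PTPN14-1 than with PTPN14-2 (5.52% of all genes) and 0 lower (6.18%), while 9 estimates were higher and 3 lower, with a median difference of 0.32 against 0.01 for all genes. DUSP5, a nuclear ERK phosphatase, differed by 0.83 (SE 0.11, higher in 3 of 3 lines, limma adjusted p = 4.75e-04), IER3, an immediate early gene, by 0.64 (SE 0.11, adjusted p = 0.00281) and FOSL1, an AP-1 subunit, by 0.63 (SE 0.10, adjusted p = 0.00250). SPRY4, SPRED3 and CCND1 were the other 3. With PTPN14-2 all 12 had estimates below control (median -0.26), and 3 fell (0.904% of all genes): IER3 by 0.63 (SE 0.11, adjusted p = 0.0152), SPRED3, an inhibitor of RAS signalling, by 0.57 (SE 0.10, adjusted p = 0.0152) and PHLDA1 by 0.63. With PTPN14-1, 2 rose (2.39% of all genes), DUSP5 by 0.57 (SE 0.11, adjusted p = 0.00970) and FOSL1 by 0.43, and the median was -0.02. Of the 12 estimates 5 were above control and 7 below, with 0 called lower (3.47% of all genes). DUSP6, not called, stood at 56.9, 49.1 and 88.5% of control with PTPN14-1 in A704, HK2 and CAKI-1. With PTPN14-2 it stood at 61.2, 70.2 and 71.6% in these lines, and with LATS siRNA at 86.6, 54.7 and 48.0%. With LATS siRNA 0 of the 12 passed by limma, with 4 at an unadjusted p under 0.05. Between the siRNAs DUSP5, IER3 and FOSL1 were called in all 12 fits that omitted a library, while the list's count was 3 without A704 PTPN14-2. With PTPN14-2 the count was 0 when PTPN14-2 was left out in A704 or CAKI-1, or the control in CAKI-1. With PTPN14-1 it was 0 without HK2 PTPN14-1 or the HK2 control and 1 without A704 PTPN14-1 or the A704 control; the FOSL1 call also ended without CAKI-1 PTPN14-1. The PHLDA1 call ended in 8 of the 12 fits, those without PTPN14-2 in any line, the LATS library of A704 or HK2, HK2 PTPN14-1, or the control of HK2 or CAKI-1.

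Matrix and invasion genes described as targets of ETS1 or ETS2 gave 3 of 11 tested genes higher with PTPN14-1 than with PTPN14-2 (5.52% of all genes) and 0 lower (6.18%). PLAUR, the urokinase receptor, led them at 1.18 (SE 0.14, higher in 3 of 3 lines, limma adjusted p = 3.00e-04). A704 gave 5.59 FPKM in the control, 9.77 with PTPN14-1 and 2.98 with PTPN14-2; HK2 gave 52.5, 64.2 and 36.7, and CAKI-1 10.5, 11.3 and 3.97. PLAU, urokinase itself, differed by 0.65 (SE 0.13, adjusted p = 0.00750) and ITGB3, an integrin subunit, by 0.51 (SE 0.13, adjusted p = 0.0216). Against control 1 of 11 was called with PTPN14-2, lower (0.904% of all genes). It was PLAUR, by 0.82 (SE 0.14, limma adjusted p = 0.0152). This fall was not called without PTPN14-2 in A704 or CAKI-1, nor without the control in HK2 or CAKI-1 (largest adjusted p 0.0935). With PTPN14-1, 1 rose (2.39% of all genes), ITGB3, by 0.61 (SE 0.13, limma adjusted p = 0.0152). The 1 that fell (3.47%) was VEGFA, the angiogenic growth factor, by 0.53 (SE 0.13, adjusted p = 0.0370). The ITGB3 rise was not called without the A704 or HK2 control, its difference between siRNAs without any 1 of the A704 and CAKI-1 PTPN14 libraries, and the VEGFA fall without A704 PTPN14-1, HK2 PTPN14-1 or any 1 control. Between the siRNAs this list had 5 calls without CAKI-1 LATS and 5 with a pseudocount of 0.1. The list median was 0.34 between the siRNAs, against 0.01 for all genes; PLAU lay at 0.40 to 0.74 FPKM in A704. The plot of these genes gives each line's change.

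**Figure D5:**
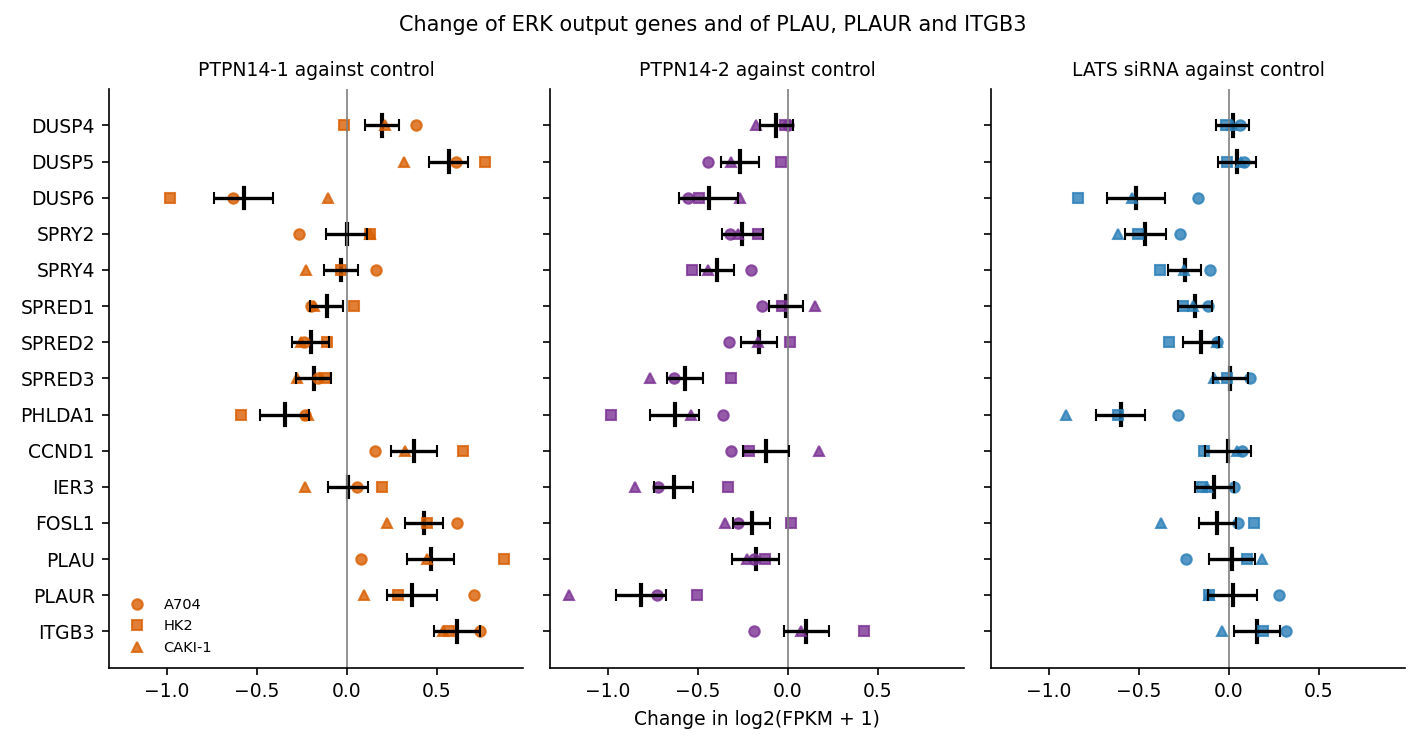
Change in log2(FPKM + 1) against the control of the same line (x axis) for 12 genes that ERK induces or CIC represses and for PLAU, PLAUR and ITGB3 (y axis), with 1 panel per siRNA. Circles, squares and triangles are A704, HK2 and CAKI-1; the tick and bar are the limma estimate and its SE. With PTPN14-2 all 12 estimates of the first group lie below 0, and PLAUR lies at -0.82.

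Of 11 tested cofactors of ETS proteins, 4 were called higher with PTPN14-1 than with PTPN14-2 (5.52% of all genes) and 1 lower (6.18%), and 6 did not pass. JUN, which pairs with ETS1 at composite sites, was higher by 0.53 (SE 0.09, limma adjusted p = 0.00240), SRF, the partner of the ternary complex factors, by 0.48 (SE 0.08, adjusted p = 0.00269), and SP100, a nuclear body protein that binds ETS1, by 0.50. GABPB2, a partner subunit of GABPA, was lower by 0.44 (SE 0.08, adjusted p = 0.00468). It lay near the filter, at 0.64 to 1.76 FPKM over the 12 libraries, and its difference was -0.79 with a pseudocount of 0.1. All 4 were called whichever of the 12 libraries was omitted; DAXX, the last of the 5, at 0.35 (SE 0.08), was not called without HK2 PTPN14-1 or PTPN14-2 in any line. Against control with PTPN14-1, 2 of 11 rose (2.39% of all genes), SP100 by 0.51 (SE 0.09, limma adjusted p = 0.00724) and SRF, and 1 fell (3.47%), GABPB2. Of these 3 calls, SP100 alone remained when any 1 control library, or the PTPN14-1 library of HK2 or of CAKI-1, was left out. With PTPN14-2, 1 of 11 was called, lower (0.904% of all genes). It was JUN, by 0.44 (SE 0.09, limma adjusted p = 0.0261), but not when PTPN14-2 or the control of any 1 line was omitted. With LATS siRNA 0 of 11 passed (0.122% of all genes), with 0 at an unadjusted p under 0.05 by limma. Of 13 upstream genes of the ERK and CIC arm, 1 was called between the PTPN14 siRNAs, where 11.7% of all genes were (6.18% lower). It was ATXN1, a cofactor of CIC, at -0.49 (SE 0.13, limma adjusted p = 0.0249). It was not called without PTPN14-1 in A704 or CAKI-1 or PTPN14-2 in HK2. EGFR, at 0.33 (SE 0.11) with PTPN14-1, did not pass (limma adjusted p = 0.0989). By limma 0 of the 13 passed against control with PTPN14-1, PTPN14-2 or LATS siRNA, where 5.87, 1.35 and 0.122% of all genes did. At an unadjusted p under 0.05 there were 4, 1 and 1 of the 13.

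Across the 12 libraries, after subtracting each line's mean, the genes most like ETS1 by Pearson correlation of log2(FPKM + 1) included AP3M1 (r = 0.986), COMMD2 (0.976), TAF2 (0.969) and DSE (0.966), out of 12275 compared. These libraries share 4 reagents, so the values describe a common order over reagents more than 12 independent points. The nearest genes to other members were USP36 for ETS2 (0.962), FGFR2 for ELF3 (0.918), ZBTB14 for ETV1 (0.951) and AHDC1 for ERF (0.977). Among the 9 genes themselves, ETV5 was most like ELF1 (0.823) and ETS2 (0.819), and ETS1 correlated with ETS2 at 0.734.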

How the data were processed

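PolyA RNA from 12 libraries was analysed. The authors deposited gene-level FPKM in 1 table, to 2 decimals, a unit judged by the numbers themselves. The submitters' processing notes name STAR 2.4.0g1 and GRCh38.p1. The sources used here do not give the gene counter, annotation, strand setting or library scaling. Exons of 6 of the 10 genes overlap another gene (GENCODE 29), 4 on the opposite strand (ELF1, ELF3, ELK3 and ETV4), and without strand such reads cannot be told apart.

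Effective depth came from whole-read steps in low values of single-exon genes, 29 to 53 a library, 80 to 94.3% of which lay on the best step within rounding. Read numbers use union exon length and are estimates.

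Values were tested as log2(FPKM + 1) with limma 3.58.1 in R 4.3.3 (statmod 1.5.0; trend, robust), which understates changes of low genes. The fit covered the 12276 genes passing FPKM 1 in 3 or more libraries, with line and 4 reagents (6 residual degrees of freedom), with Benjamini-Hochberg adjustment over all genes at 0.05. Libraries pair across reagents because they are the same cell line. The fit was tested on simulated data. Line by PTPN14 interaction used 9 line and target groups (3 residual degrees of freedom).

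Members and lists were chosen with earlier results of these data known. EHF did not pass and was not tested. Named genes are the 10 members, tested ETS relatives, siRNA targets, list members with the smallest p, and the genes most correlated with members, of which 1 is not reported here; markers, ETS relatives below the filter and further list genes were named after their values were seen. Alternatives were a pseudocount of 0.1, no filter, quantile normalisation, no block, and each library left out.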

Additional observations from a re-analysis of the deposited data

How the results depend on the processing

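The counts of called ETS genes were the same under a pseudocount of 0.1 and quantile normalisation in all 7 comparisons. Without the filter on low values, ETS2 was no longer called with PTPN14-2, which left 1 gene (ETS1), and the calls over all genes were 355 in place of 720 with PTPN14-1, 60 in place of 166 with PTPN14-2 and 3 in place of 15 with LATS siRNA. With no replicate block, that is without the pairing of libraries by cell line, the differences between lines enter the error, and 0 ETS genes and 0 genes in all were called with PTPN14-1, PTPN14-2 and LATS siRNA and between the PTPN14 siRNAs. Leaving out 1 library at a time gave 0 to 1 ETS genes and 202 (without the HK2 control) to 833 genes in all with PTPN14-1, 1 to 3 and 34 (without the CAKI-1 control) to 254 (without A704 PTPN14-1) with PTPN14-2, 0 and 3 to 20 with LATS siRNA, and 1 to 3 and 744 (without CAKI-1 PTPN14-2) to 1643 between the PTPN14 siRNAs. Between lines these fits called 8 to 9 ETS genes for A704 and HK2, 7 for CAKI-1 and HK2 and 8 to 9 for CAKI-1 and A704. The third gene was ELF3 with PTPN14-2 and ETV1 between the PTPN14 siRNAs. ETS2 was not called between the PTPN14 siRNAs without A704 PTPN14-2 or either CAKI-1 PTPN14 library. No called change of an ETS gene turned its direction under any of these settings; 962 values moved by less than the SD of the change over lines (or of the line difference over reagents), and 19 by more. The same settings were applied to the other named genes and the lists after the data were seen, and 0 of their called changes reversed. Without the filter, calls ended for SRF, FOSL1, ITGB3 and VEGFA with PTPN14-1, for JUN, PHLDA1, IER3 and PLAUR with PTPN14-2, and for ATXN1, CCND1 and ITGB3 between the PTPN14 siRNAs. KRT18 and, with PTPN14-1, FOSL1 and GABPB2 were not called after quantile normalisation.

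The interaction of line and PTPN14 siRNA by limma passed for 0 of 12276 genes, with 106 of all genes and 0 of the ETS genes at an unadjusted p under 0.05. Its 3 residual degrees of freedom are the differences between the PTPN14 siRNAs within a line, which for ETS1 were large. Depth limits EHF in A704 and HK2, ETV2 in every line and ETV4 in A704, where an estimated 9 to 15 reads lay behind an ETV4 value.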

Other observations

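Targets of the ternary complex factors with SRF did not follow ELK1 in 1 direction. With PTPN14-1, 2 of 6 tested genes fell (3.47% of all genes) and 1 rose (2.39%). EGR1, an immediate early transcription factor, fell by 0.74 (SE 0.13, lower in 3 of 3 lines, limma adjusted p = 0.00606), from 9.02 to 4.69 FPKM in HK2, 2.55 to 0.86 in A704 and 2.95 to 1.83 in CAKI-1. MCL1, an inhibitor of apoptosis, fell by 0.44 (SE 0.09, adjusted p = 0.0117), and SRF rose by 0.33 (SE 0.08, adjusted p = 0.0357). The MCL1 call ended without the A704 control or either of the HK2 PTPN14-1 and control libraries, and the SRF call without any 1 control, HK2 PTPN14-1 or CAKI-1 PTPN14-1. With PTPN14-2 and with LATS siRNA 0 of 6 passed by limma, with 1 at an unadjusted p under 0.05 in each. EGR1 was also below control in all 3 lines with PTPN14-2, at 58.0, 75.9 and 51.5% in A704, HK2 and CAKI-1. With LATS siRNA it was at 45.1, 86.5 and 63.4%. Between the PTPN14 siRNAs 2 of 6 were called, SRF higher with PTPN14-1 (5.52% of all genes) and MCL1 lower (6.18%).

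Epithelial genes described as ELF3 or EHF targets differed in part from ELF3 in their order of lines. Between A704 and HK2, 5 of 8 were called higher in A704 (40.6% of all genes), as was ELF3. They were CLDN4, CLDN7, KRT8, KRT18 and CDH1, while EPCAM, TGFBR2 and LCN2 were lower (44%). Against A704, CLDN4, CLDN7, KRT8, KRT18 and CDH1 were lower in CAKI-1 (39.3% of all genes), while ELF3 was higher. LCN2, TGFBR2 and EPCAM were higher there (41.8%), EPCAM at 0.51 FPKM or below in both lines. Against HK2, TGFBR2, CLDN4, LCN2 and KRT8 were called higher in CAKI-1 (40.4%), as was ELF3, and EPCAM lower (41.3%). EPCAM lay at 24.7 to 33.0 FPKM in HK2. CDH1 and CLDN7 passed the filter on low values only through A704, EPCAM only through HK2 and LCN2 only through CAKI-1. The filter therefore favoured calls of these genes between lines, and such calls carry no weight. By limma 0 of 8 tested genes were called against control with PTPN14-1, PTPN14-2 or LATS siRNA, where 5.87, 1.35 and 0.122% of all genes were. At an unadjusted p under 0.05 there were 1, 1 and 0. Between the PTPN14 siRNAs 1 of 8, KRT18, was higher with PTPN14-1 (5.52% of all genes) and 0 lower (6.18%). Its difference was 0.40 (SE 0.10, limma adjusted p = 0.0182), a call that ended without PTPN14-2 in HK2 or PTPN14-1 in CAKI-1.

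The ERK and CIC output list was mostly lower in A704 and in CAKI-1 than in HK2. In A704 against HK2, 9 of 12 were lower (44% of all genes) and 2 higher (40.6%). The median was -1.60 against -0.04 for all genes. In CAKI-1 against HK2, 9 were lower (41.3%) and 3 higher (40.4%), with a median of -0.90. In CAKI-1 against A704, 7 were higher (41.8%) and 3 lower (39.3%), namely IER3, PHLDA1 and DUSP6, with a median of 0.73. PHLDA1 was highest in A704, at 45.5 to 58.6 FPKM.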
